A study of Mus musculus with 16 samples.

Results

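The regions described here are 315 stretches of mouse liver chromatin that DNase I cut 27 h after an injection of TCPOBOP and that were not called as open in vehicle livers at the same time. The members were chosen by measured values, the presence of peaks in 27 h lists and, for the drop at the end, in 3 h lists. Overlapping peaks (1 bp or more) of all 16 deposited peak lists were merged into 61240 regions. A region was kept where all 4 TCPOBOP lists at 27 h held a peak and none of the 4 vehicle lists at 27 h did, which left 352. From these, 37 were dropped because all 4 TCPOBOP lists and no vehicle list held a peak at 3 h as well. The remaining 315 are 0.514% of all regions and 1.09% of the 28968 regions present in all 4 TCPOBOP lists at 27 h. They are called late-opened regions in what follows, a name given by the rule.

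DNase I cuts DNA where nucleosomes are displaced or loosened, so its cutting marks promoters, enhancers and other sites where proteins bind. TCPOBOP is a synthetic agonist of the constitutive androstane receptor (CAR, Nr1i3), a nuclear receptor of hepatocytes that, once active, binds DNA as a dimer with the retinoid X receptor. CAR is known in liver for inducing drug-metabolising enzymes, among them cytochromes P450, and in rodents for driving liver growth.

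Livers came from CD-1 mice, an outbred strain, obtained at 7 weeks of age. Males and females received TCPOBOP at 3 mg/kg or vehicle alone, which was 1% DMSO in corn oil, by intraperitoneal injection, and liver was taken 3 h or 27 h later. Each of the 8 groups (male or female, 3 h or 27 h, TCPOBOP or vehicle) had 2 pools, each made of DNase-released DNA from 3 to 5 mice. Nuclei came from liver tissue, so a region's value mixes all liver cell types, and a change in the share of cells cannot be told apart from a change within cells. Each combination of sex and time has its own experiment code, so that a difference between sexes or between times cannot be told apart from a difference between experiments.

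Libraries held 15679689 to 43618254 tags and 29216 to 46281 peaks. At 27 h the TCPOBOP libraries held 28633652 and 36187819 tags in males and 25065722 and 30340709 in females. The vehicle libraries at 27 h held 35822318 and 43618254 tags in males and 28624325 and 18044366 in females, so both male vehicle pools were deeper than the shallower male TCPOBOP pool, and the second female vehicle pool was the shallowest of the 8. Values are given on either of 2 scales. Scaled pileup is the coverage of extended tags at the summit of a peak, per 1000000 tags of its library. Fold enrichment is the authors' ratio of that coverage to the background around the peak in its own library. A vehicle library with no peak has no value in the lists, and is not a measured 0. The lowest scaled pileup that any peak had in the 27 h vehicle lists was 0.363 and 0.298 in males and 0.349 and 0.443 in females. Liver marker genes could not be checked, because the lists give mm9 coordinates and no gene names, and no mm9 genome or annotation was used here. For the same reason no gene and no sequence is given for any region.

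Most late-opened regions were small and weak beside other open chromatin. Their median width was 598 bp (quartiles 486.5 to 776, range 270 to 2709), against 904 bp for the other regions present in all 4 TCPOBOP lists, and 21 were wider than 1 kb. Mean fold enrichment over the 4 TCPOBOP pools at 27 h had a median of 4.47 (quartiles 3.65 to 5.69, range 2.20 to 13.9), against 6.50 in the other regions. Mean scaled pileup had a median of 1.04 (range 0.494 to 8.36) against 2.01. Within each list, peaks were ranked by −log10 q, and 17 of the 315 (5.40%) stood among the 20000 highest-ranked peaks of all 4 lists, against 52.5% of the 28968 regions. These values come from the lists the rule used and are given as description.

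Median scaled pileup at these regions was of like size in the 4 pools. Median scaled pileup over the 315 was 0.908 and 1.11 in the male TCPOBOP pools and 1.08 and 1.02 in the female pools. The coefficient of variation of scaled pileup over the 4 pools had a median of 20.3% in late-opened regions and 20.7% in the other regions. Both sets had to be called in all 4 pools, so these values do not show how reproducible the members are.

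Regions just outside the rule were close to the members in strength. There were 372 regions with a peak in all 4 TCPOBOP lists and in 1 vehicle list at 27 h, with a median fold enrichment of 4.30, a median scaled pileup of 0.937 and a median lowest −log10 q of 5.27. Another 487 regions had a peak in 3 TCPOBOP lists and no vehicle list, with 3.99, 0.716 and 4.53. The 315 members had 4.47, 1.04 and 5.70. The 37 dropped regions, open at 3 h as well, were stronger, with a median fold of 5.34 and a median scaled pileup of 1.99. The rule applied in reverse, to regions in all 4 vehicle lists and no TCPOBOP list at 27 h, found 53 regions beside the 352. The 2 counts are not on equal terms. The reverse rule asked for a peak in the second female vehicle list, which held 32596 peaks, where the TCPOBOP lists held 39211 to 46281. How far list length sets these counts was not tested. The count of 315 depended on single lists: it was 486 without the second male vehicle pool and 552 without the first male TCPOBOP pool. With all 16 lists shortened to the 29216 highest-ranked peaks the count was 305, of which 101 were among the 315.

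The late-opened region that ranked highest in its weakest list was chromosome 14, 20954198 to 20955082 (mm9, 885 bp). Its scaled pileup at 27 h was 4.51 and 6.83 in the male TCPOBOP pools and 6.10 and 5.01 in the female pools. All 4 values were far above the lowest peak of any 27 h vehicle list, and its fold enrichment was 11.9 ± 1.04 (SD, n = 4 pools). It had already been called at 3 h in all 4 TCPOBOP pools, at 1.81 and 1.62 in males and 3.04 and 3.16 in females, and in the first female vehicle pool at 0.590. The 27 h pools of each sex thus lay above the 3 h pools of the same sex without overlap, and the 3 h vehicle peak was the lowest of the series at this site. That vehicle peak is why the rule kept the region as late.

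The next in rank was chromosome 17, 79037702 to 79038835 (1134 bp). Its 27 h scaled pileup was 4.02 and 5.55 in males and 4.83 and 5.01 in females, with a fold enrichment of 10.7 ± 0.970 (SD, n = 4). At 3 h it was called after TCPOBOP in the second male pool (0.755) and in both female pools (1.45 and 1.10), and in no vehicle pool. The 3 h and 27 h values were far apart in both sexes. Region 3, on chromosome 18, 33553385 to 33554643, had the highest fold enrichment of all 315, 13.9 ± 2.28 (SD, n = 4), at a moderate scaled pileup of 2.34, 3.32, 2.99 and 2.44 in the 2 male and the 2 female pools. It was called at 3 h in both male TCPOBOP pools (1.26 and 0.647) and the first female one (0.724).

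Region 4 was called early in males. At chromosome 18, 51620914 to 51622185, scaled pileup in the male TCPOBOP pools was 4.29 and 2.37 at 3 h and 4.99 and 6.08 at 27 h. In the female pools it was not called in the first and 0.852 in the second pool at 3 h, and 3.35 and 2.70 at 27 h. The male 3 h values overlapped the female 27 h values. A separate late-opened region lay 62 bp away, on chromosome 18 from 51620184.

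Regions 5 and 8 had no peak at 3 h in any of the 8 lists. At chromosome 12, 43636150 to 43637129, the 27 h scaled pileup was 2.44 and 2.96 in males and 1.72 and 1.52 in females, with a fold enrichment of 11.2 ± 2.48 (SD, n = 4). At chromosome 13, 59607335 to 59608430, it was 1.61 and 2.65 in males and 2.55 and 2.27 in females, with a fold of 7.01 ± 1.61. These are the members of highest rank with no 3 h peak in any list. Male and female pools did not overlap at the first and overlapped at the second. The 3 h libraries held 15679689 to 25383943 tags and the 27 h TCPOBOP libraries 25065722 to 36187819. A missing 3 h peak is therefore no measured closed state.

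Region 9, on chromosome 7, 26676827 to 26677554, had the highest scaled pileup of all members and one of the lower fold enrichments. Its scaled pileup at 27 h was 5.03 and 7.65 in the male and 10.1 and 10.6 in the female TCPOBOP pools, a mean of 8.36 ± 2.57 (SD, n = 4), and its fold enrichment was 2.82 ± 0.316. The fold is relative to the local background of each library. At 3 h it was called in the female TCPOBOP pools at 2.51 and 2.96 and in no male pool.

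The remaining 5 of the 12 had mean scaled pileups of 1.61 to 2.12 and folds of 7.76 to 10.2. In rank order they lay on chromosome 7 from 97425755, chromosome 14 from 17938932, chromosome 15 from 97449314, chromosome 15 from 100825652 and chromosome 2 from 142784225, the first at 1.54, 2.32, 2.43 and 2.18. Of these, the regions on chromosome 7 and chromosome 2 were called at 3 h in both female pools and in no male pool. At the weak end, chromosome 13, 63276790 to 63277232 had 0.559 and 0.415 in males and 0.479 and 0.560 in females at 27 h, close to the lowest peaks of the vehicle lists. The other members lowest by rank of −log10 q in their worst list were chromosome 17, 88380147 to 88380653, with a mean of 0.631 ± 0.167, and chromosome 13, 69775233 to 69775699, with 1.31 ± 0.315 (SD, n = 4), which is above the members' median scaled pileup.

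**Figure D1:**
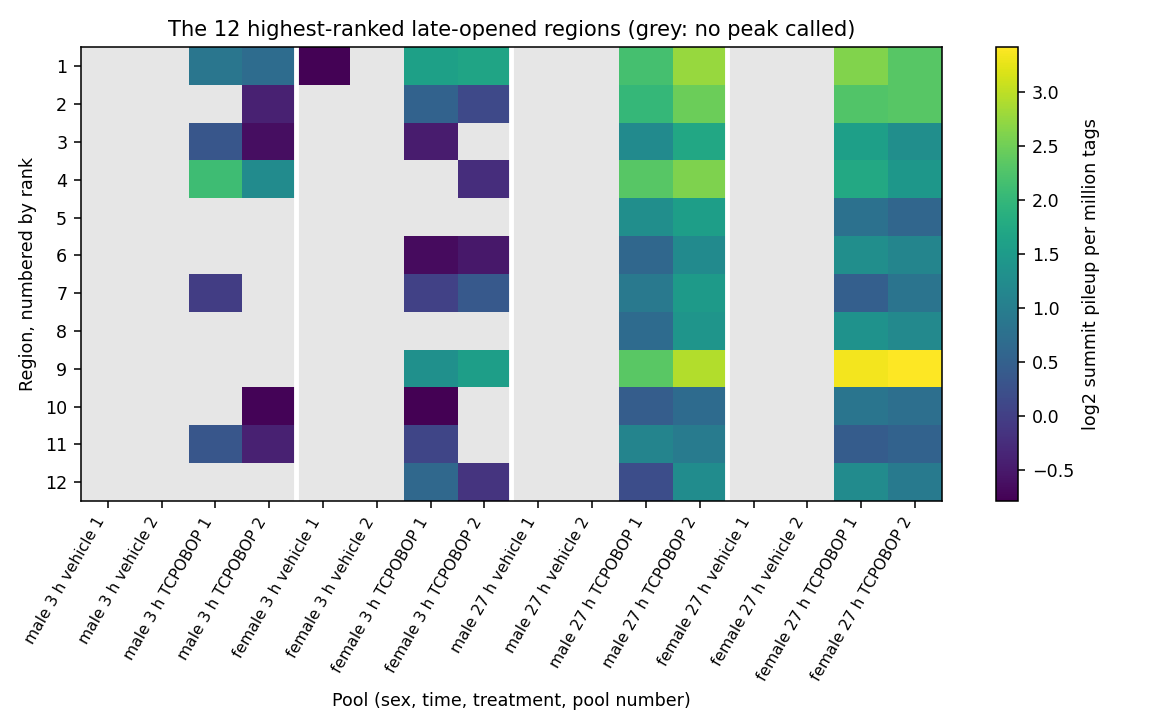
Heat map of the 12 late-opened regions that rank highest in their weakest 27 h TCPOBOP list (rows, numbered by rank) in all 16 pools (columns); colour is log2 of summit pileup per 1000000 tags and grey means that no peak was called. The 27 h TCPOBOP columns are filled and the 27 h vehicle columns empty by the rule; at 3 h, regions 5 and 8 are empty in all pools and region 1 is filled in all 4 TCPOBOP pools and 1 vehicle pool.

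Whether the regions were called at 3 h was read from the 3 h lists, which the rule used only to drop the 37. Of the 315, 205 (65.1%) had a peak at 3 h in at least 1 TCPOBOP list, where 97% of the 28968 regions present in all 4 TCPOBOP lists at 27 h had one. Another 110 (34.9%) had no 3 h peak in any list, against 2.25% of the 28968. A vehicle list at 3 h held a peak in 42 (13.3%), against 92.8% of the 28968. The pattern of a TCPOBOP but no vehicle peak at 3 h was found in 163 (51.7%), against 4.93% of the 28968, and no member had a vehicle but no TCPOBOP peak at 3 h. The label late therefore holds for the rule and not for every region taken singly. How many regions it leaves out depends on the length of the 3 h lists, since at equal list length 153 (48.6%) had a TCPOBOP peak at 3 h, and 82 of the 205 rested on 1 list. Members were chosen for lacking a 27 h vehicle peak and were weaker than the other regions, with a median scaled pileup of 1.04 against 2.01. The 28968 include 18443 regions called in all 16 lists. Over all 61240 regions, 69.9% had a TCPOBOP peak at 3 h and 60.7% a vehicle peak. A TCPOBOP but no vehicle peak was found in 13.1% of them, and no 3 h peak in 26.2%. In the 53 regions of the reverse rule these 4 shares were 49.1%, 43.4%, 24.5% and 32.1%. No set of equal strength was compared, so how far the shares of members follow from the choice was not tested.

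By list, the members called at 3 h were 118 and 61 in the male TCPOBOP pools and 16 and 16 in the male vehicle pools. In females they were 116 and 113 after TCPOBOP and 21 and 21 after vehicle. Every TCPOBOP list held more members than any vehicle list. That order alone is not a trait of the members, since of the 28968 regions the TCPOBOP lists held 86.4 to 92.6% and the vehicle lists 80.7 to 82.6%. The lists differed in length: the 3 h TCPOBOP lists held 39192, 32791, 32940 and 33061 peaks and the 3 h vehicle lists 31096, 29216, 29586 and 30412, from 18543171 to 25383943 and 15679689 to 17206999 tags. With every 3 h list shortened to 29216 peaks the counts were 58, 40, 90 and 89 after TCPOBOP and 15, 16, 20 and 19 after vehicle. The first male TCPOBOP pool, the deepest at 3 h, lost the most members by this, and the TCPOBOP lists still held more than any vehicle list.

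**Figure D2:**
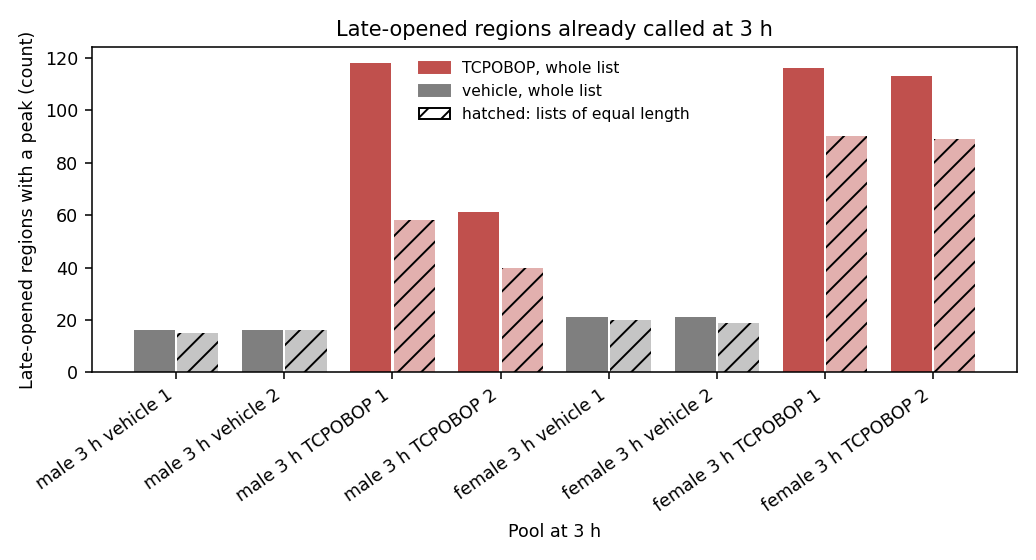
Number of the 315 late-opened regions with a peak in each of the 8 pools at 3 h, in the whole lists (solid bars) and in lists shortened to 29216 peaks (hatched bars), in red for TCPOBOP and grey for vehicle. TCPOBOP pools hold 61 to 118 and vehicle pools 16 to 21 in the whole lists, and 40 to 90 and 15 to 20 at equal length.

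Members differed in how many 3 h TCPOBOP lists held them: 110 were in 0 lists, 82 in 1, 59 in 2, 48 in 3 and 16 in 4. Since regions in all 4 TCPOBOP lists and no vehicle list had been dropped, each of the 16 had at least 1 vehicle peak at 3 h by construction. At 27 h the median fold enrichment was higher with each further list, while the median scaled pileup was highest at 2 lists. Fold enrichment had medians of 4.24, 4.38, 5.12, 5.15 and 5.26 for members in 0, 1, 2, 3 and 4 of the 3 h lists, and median scaled pileup was 0.905, 0.900, 1.29, 1.26 and 1.15. The groups overlapped widely, with folds of 2.23 to 11.2 in members with no 3 h TCPOBOP peak and 2.58 to 11.9 in the 16. Members are not replicates of a condition, so no test was made.

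**Figure D3:**
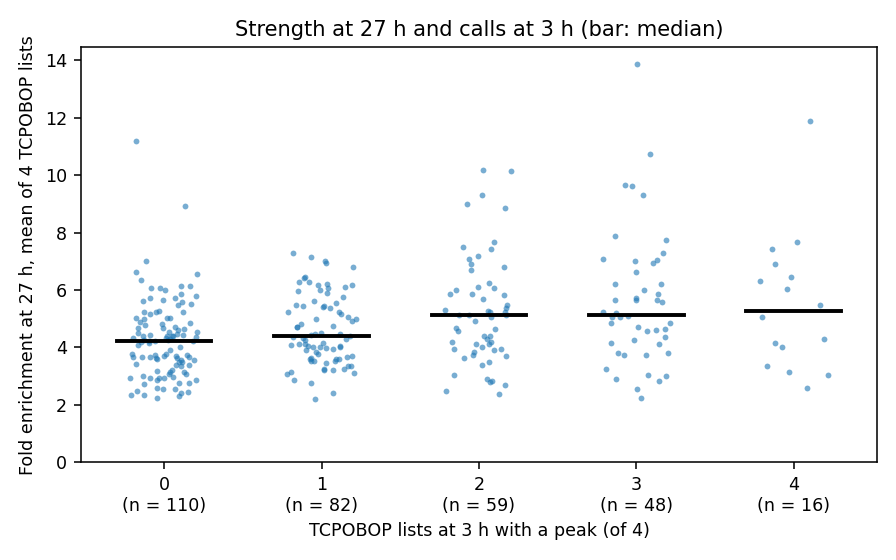
Mean fold enrichment at 27 h over the 4 TCPOBOP pools (vertical axis) for each of the 315 late-opened regions, by the number of 3 h TCPOBOP lists that held a peak there (horizontal axis); bars are medians. Medians run from 4.24 in the 110 regions with no 3 h TCPOBOP peak to 5.26 in the 16 with 4, and the ranges overlap.

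The sexes were compared at 3 h by the members called in each. A 3 h TCPOBOP peak was found in 141 members in males and 153 in females, and 89 were found in both, which is 63.1% of the male and 58.2% of the female set. Males alone accounted for 52 and females alone for 64. Both pools of a sex held a peak at 38 members (12.1%) in males and 76 (24.1%) in females. Over the 28968 regions the order was the reverse, with 84.4% in males and 82.2% in females for both pools and 94.6% and 92.3% for any pool, where members had 44.8% and 48.6%. The second male list was the shortest and shallowest of these 4. With each list shortened to 29216 peaks, the male lists held 58 and 40 members and the female lists 90 and 89. The part of depth in the difference was not tested.

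For the members called in both 3 h and both 27 h TCPOBOP pools of a sex, the level at the 2 times can be set side by side. In males, 38 members qualified, and mean scaled pileup was higher at 27 h in 26 (68.4%), with a median ratio of 1.28 (range 0.420 to 3.30). Among 24398 other regions the share was 70.5% and the median ratio 1.16. In females, 51 of 76 members (67.1%) were higher at 27 h, with a median ratio of 1.21 (range 0.588 to 3.86), against 57.3% and 1.08 in 23747 other regions. The 27 h pools lay wholly above the 3 h pools at 19 of 38 members in males and 37 of 76 in females (36.8% and 41.0% of the other regions). In males the share of members higher at 27 h was thus close to that of other regions. Their median ratio and their share of pools wholly above were higher than in other regions. In females each of these measures was higher in members. The rule dropped 37 regions called at 3 h in all 4 TCPOBOP lists and no vehicle list, and the other regions keep them. How far this drop raises the ratios of members was not tested. Members that were not called at 3 h are outside this comparison.

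Among the 16 members called in all 4 TCPOBOP pools at 3 h, mean scaled pileup was higher at 27 h than at 3 h in 9 in males (median ratio 1.04) and 7 in females (0.916). Of the other regions above, 70.5% in males and 57.3% in females were higher at 27 h, with median ratios of 1.16 and 1.08. The rule kept these 16 only because a 3 h vehicle list held a peak, and the part of this in their ratios was not tested. Chromosome 14, 17394028 to 17394575 was called in all 8 lists at 3 h, at 0.867 and 1.40 in the male and 0.966 and 1.35 in the female TCPOBOP pools. In the 3 h vehicle pools it had 0.702 and 0.756 in males and 0.767 and 0.925 in females. At 27 h it had 0.664, 0.857, 0.878 and 0.890 after TCPOBOP, of which 0.664 was below all 3 h vehicle values and the others lay among them.

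Chromosome 13, 22027020 to 22027531 was likewise called in all 8 lists at 3 h, at 2.04 and 1.28 in the male and 1.24 and 1.23 in the female vehicle pools. Its TCPOBOP pools at 3 h had 2.28 and 2.00 in males and 0.869 and 2.61 in females, overlapping vehicle in both sexes. At 27 h they had 0.803 and 0.995 in males and 0.957 and 1.12 in females, lower than every 3 h vehicle value. A further 3 members were in 7 of the 8 lists at 3 h. The first, on chromosome 16, 35900562 to 35901154, had a 27 h mean of 0.921 ± 0.141 (SD, n = 4 pools). The second, on chromosome 13, 23592136 to 23593130, had 1.22 ± 0.313, and the last, on chromosome 9, 29943434 to 29943817, had 1.77 ± 0.562. These sites were open in 3 h vehicle livers and are late-opened only through the absence of a 27 h vehicle peak.

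A test of TCPOBOP against vehicle at 3 h was possible only where all 4 pools of a sex had a peak. This was the case for 6 members in males and 7 in females, all of them called in both vehicle pools. The 163 members with a TCPOBOP but no vehicle peak at 3 h could not be tested. The results below therefore do not speak for the members as a set. In the limma fit over all regions, 0 of the 6 male members passed an adjusted p of 0.05, where 0.642% of 22908 regions were called higher and 0.113% lower. At an unadjusted p under 0.05, 1 of the 6 was lower after TCPOBOP, chromosome 3, 145928591 to 145929176, with log2 −0.60 ± 0.28 (SE, 2 pools in each group), where 7.08% of the 22908 regions were lower at that threshold. Its TCPOBOP pools, at 1.10 and 0.647, overlapped the vehicle pools, at 1.21 and 1.05. In females 1 of 7 members was higher, where 1.04% of 22825 regions were called higher and 0.0789% lower. The median log2 change was −0.04 over the 6 male members and 0.31 over the 7 female members, where all tested regions had −0.03 in both sexes. Signs were positive in 2 of 6 and 7 of 7, and the share of positive signs over all tested regions was not counted.

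The member called in females was chromosome 9, 113742420 to 113743216. Its scaled pileup at 3 h was 2.03 and 1.40 after TCPOBOP and 0.708 and 0.802 after vehicle, with no overlap. The log2 difference was 1.16 ± 0.27 (SE, 2 pools in each group), with an adjusted p of 0.0318 in limma. The adjusted p was 0.0669 with these 4 libraries fitted alone and 0.0836 on fold enrichment. Without the first TCPOBOP, the first vehicle or the second vehicle pool it was 0.271, 0.244 and 0.193, while the log2 difference was 0.86, 1.14 and 1.18. Each of these fits leaves 1 pool in an arm, which is assumed to vary like the pools of the other groups. At 27 h the female level was 0.658 times that at 3 h, and the male level 2.19 times.

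Female and male TCPOBOP livers at 27 h were compared at all 315 members, each of which has a peak in all 4 pools by the rule. The choice of members is not neutral to sex: it required no vehicle peak in male libraries of 35822318 and 43618254 tags and in female ones of only 28624325 and 18044366. How far this tilts the set towards regions higher in females was not tested, so the counts over members are a description. In the limma fit, 48 members (15.2%) were higher in females and 6 (1.90%) higher in males, where 6.52% and 7.39% of 28968 regions were. The median log2 difference, female minus male, was 0.32 in members and 0.06 in all regions. The fit centres each library on regions that all 16 lists share. Without that step the median of all regions moved to −0.16 and that of members to 0.10, and the calls to 16 higher in females and 10 higher in males, where 1.47% and 11.4% of all regions were called. The gap between the medians of members and of all regions was 0.26 on the log2 scale, which centring cannot change, and 0.13 on fold enrichment. On fold enrichment 12 and 1 members were called, where 1.46% and 2.09% of all regions were. Vehicle pools at 27 h have no peak at these regions, so whether the sexes differed without TCPOBOP was not tested.

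On scaled pileup with no centring, both female pools lay above both male pools at 95 members (30.2%, against 14.2% of all regions), and both male pools above both female pools at 56 (17.8%, against 36.6%). On the centred scale the counts were 171 (54.3%, against 33.9%) and 30 (9.52%, against 26.6%). Without centring, the ratio of the female to the male mean had a median of 1.06 in members (range 0.244 to 2.24). With 1 pool left out, the median log2 difference was 0.25 to 0.36 in members and 0.04 to 0.07 in all regions. Fewer regions were called in each such fit, among members and among all regions, so the counts depended on having both pools.

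The member with the lowest p was chromosome 7, 105506532 to 105507212, with 5.39 and 6.49 in the female and 2.37 and 3.32 in the male pools. Its log2 difference was 1.29 ± 0.19 (SE, 2 pools in each group), with an adjusted p of 9.15e-05 in limma. Female values were all above male values, and at 3 h it had been called in the first female TCPOBOP pool alone (1.79). Chromosome 11, 51587987 to 51588803 had 3.39 and 3.13 in females and 1.36 and 1.55 in males, a difference of log2 1.38 ± 0.23 (limma adjusted p = 0.000266). Both female TCPOBOP pools held it at 3 h (1.21 and 1.15) and no male pool did.

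Region 9 of the ranking, on chromosome 7 from 26676827, was higher in females by log2 0.96 ± 0.17 (adjusted p of 0.000434 in limma). Another 4 members called higher in females lay on chromosome 17, 66714624 to 66715726, chromosome 13, 56662480 to 56662806, chromosome 11, 78235268 to 78236202 and chromosome 19, 39368972 to 39370040, with log2 differences of 1.20 to 1.31. Opposite in sign was chromosome 14, 99526442 to 99527143, with 0.479 and 0.857 in the female and 3.14 and 2.32 in the male pools (log2 −1.86 ± 0.31, limma adjusted p = 0.000287). On fold enrichment, chromosome 11 from 78235268 kept its call and the other 7 of these 8 had adjusted p of 0.0550 to 0.968. Region 4 of the ranking, on chromosome 18 from 51620914, was among the 6 higher in males.

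Sex differences at 27 h can be set beside 3 h calls in the experiments of the same sex, which share no library. Of the 48 members higher in females, 27 (56.2%) had a female and 18 (37.5%) a male 3 h TCPOBOP peak. Of the 6 higher in males, 4 and 6 did. Over all 315 the shares were 48.6% and 44.8%.

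**Figure D4:**
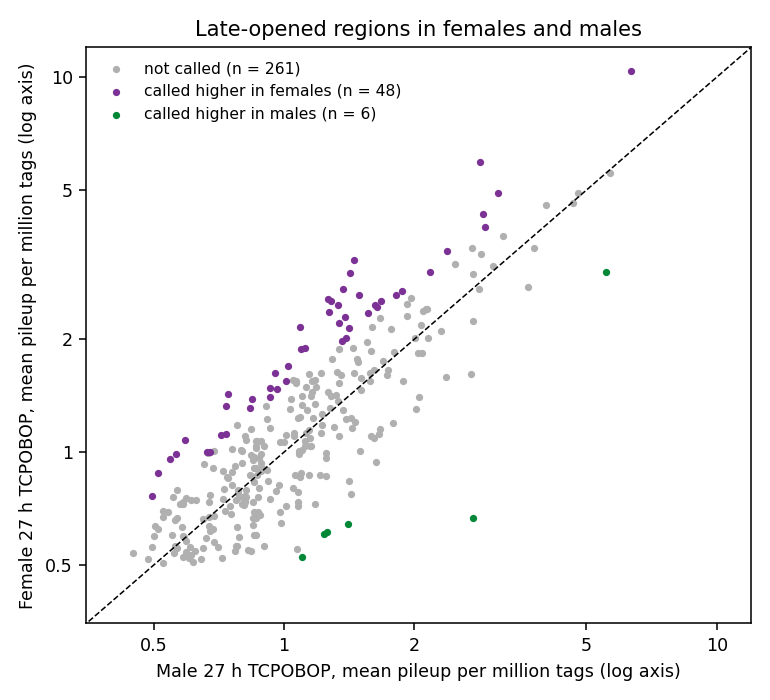
Mean pileup per 1000000 tags at 27 h after TCPOBOP in the 2 female pools (vertical) against the 2 male pools (horizontal) for the 315 late-opened regions, both axes logarithmic; the dashed line marks equality. Purple points are the 48 members called higher in females and green points the 6 called higher in males in the centred limma fit; without centring the calls were 16 and 10.

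Late-opened regions lay on 20 chromosomes, with 22 on chromosome 4, 21 on each of chromosomes 2 and 11, 9 on the X chromosome and 0 on Y. Per 1000 regions present in all 4 TCPOBOP lists, the share ran from 6.43 on chromosome 10 and 6.46 on chromosome 6 to 16.7 on chromosome 18 and 17.0 on chromosome 16. Most lay apart from each other: the median gap to the nearest other member was 1597800 bp. A region with a 27 h vehicle peak lay within 10 kb of 183 (58.1%), at a median gap of 6663 bp. Regions open in all 16 lists were farther from members than from the other regions present in all 4 TCPOBOP lists. The median gap to one was 19823 bp against 14751.5 bp, and 34.9% against 39.6% lay within 10 kb of one and 84.4% against 90.3% within 100 kb. Those other regions include the 18443 called in all 16 lists, each measured to the nearest other one. How far this sets the difference was not tested.

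Proximity to sites opened by 3 h in both experiments, of which there were 238, was more frequent among members. Within 100 kb of such a site lay 33 members (10.5%), against 4.58% of the other regions. Within 10 kb lay 11 (3.49%, against 0.845%), and within 1 kb 5 (1.59%, against 0.126%). The 5 lay at gaps of 189 to 807 bp. Those on chromosome 8, 13049913 to 13050337, and on chromosome 16, 14060075 to 14060660, had no TCPOBOP peak of their own at 3 h. The others, on chromosome 8 from 107266389, on chromosome 16 from 34145848 and on chromosome 19 from 46164682, had 2, 3 and 1. Neighbouring regions are not independent, since a wider site can be split in some lists.

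Members within 20 kb of each other formed 15 pairs, and no group of 3. Linking members over gaps of up to 100 kb, a distance chosen after the values were seen, gave 2 groups of 3 or more. On chromosome 19, 39301851 to 39408416, 6 members lay within 106.6 kb. On chromosome 7, 26676827 to 26723451, 3 members lay within 46.6 kb.

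In the chromosome 19 group, the first member, from 39301851 to 39304559, was the widest of the 315 at 2709 bp. Its scaled pileup at 27 h was 1.57 and 1.71 in males and 2.07 and 2.80 in females, and it had been called at 3 h in the male TCPOBOP pools (0.906 and 0.701). The members from 39345820 and 39368972 had no 3 h peak, and the second of these was higher in females, at 2.51 and 2.54 against 1.08 and 1.49. Those from 39377412, 39404018 and 39408147 had 27 h means of 1.84, 1.61 and 1.62, and 3, 2 and 3 of the 3 h TCPOBOP lists held them. At all 6, each female 27 h value was above each male one. On this scale, with no centring, that was so at 30.2% of the 315 members and 14.2% of all 28968 regions. Neighbouring members are not independent. Between them stood 4 stronger regions from 39356867 to 39362043, with 27 h means of 4.33, 6.58, 5.57 and 5.17, all called in 4 TCPOBOP lists at 3 h and the last in all 16 lists. Just past them, the region from 39363512 to 39363916 showed the reverse pattern, with a peak in all 4 vehicle lists and no TCPOBOP list at 27 h, and in 3 vehicle lists and no TCPOBOP list at 3 h.

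In the chromosome 7 group, a region called in all 16 lists began 3.06 kb after the start of region 9 of the ranking, with a 27 h TCPOBOP mean of 8.48. A further region from 26681892, at 10.1, had a peak in all 8 lists at 27 h but in 1 vehicle list at 3 h. The other members lay from 26713932 to 26715240 and from 26722200 to 26723451. The former had 1.22 and 1.33 in males and 2.63 and 2.11 in females, and the latter 1.05 and 1.11 in males and 0.918 and 0.560 in females. Female values lay above male values at the former and below them at the latter, without overlap at either. Here too a region with the reverse pattern lay between members, from 26687223 to 26687691, in all 4 vehicle lists and no TCPOBOP list at 27 h.

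**Figure D5:**
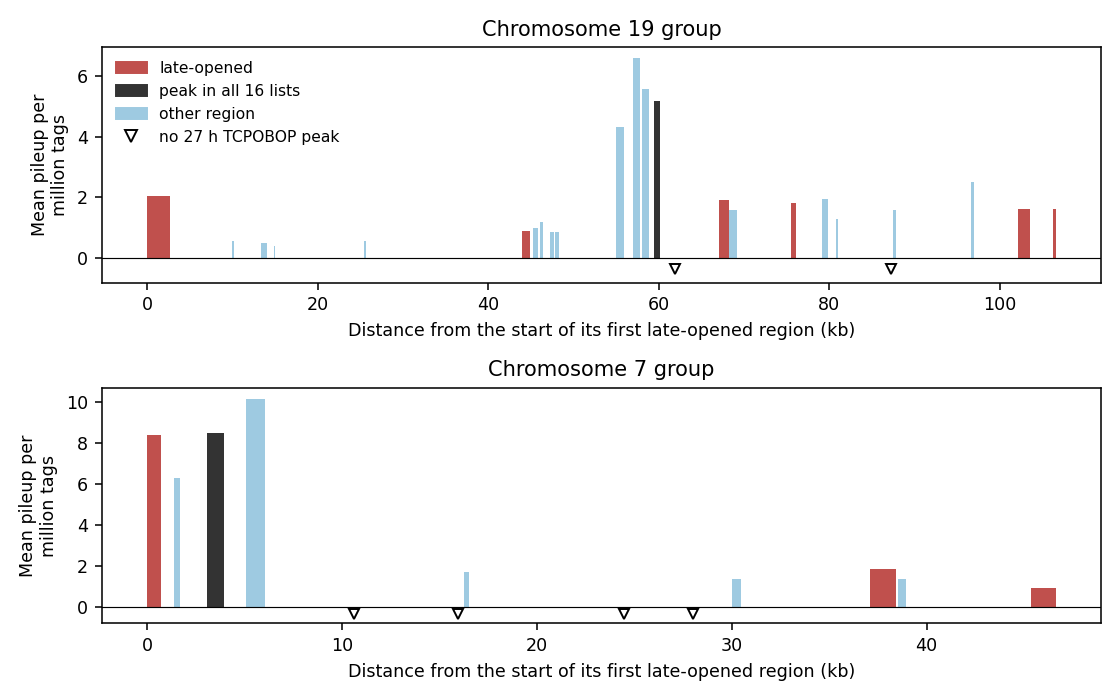
Mean pileup per 1000000 tags over the 27 h TCPOBOP pools with a peak (vertical) by distance in kb from the first late-opened region (horizontal) in the groups on chromosome 19 (6 late-opened regions) and chromosome 7 (3); bar width is region width. Late-opened regions are red, regions called in all 16 lists black and other regions blue, and triangles mark regions with no 27 h TCPOBOP peak. On chromosome 19 the red bars flank a block of stronger regions at 4.33 to 6.58.

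The position of the cutting maximum was compared over time. For the 205 members with a 3 h TCPOBOP peak, the median distance between the 3 h and the 27 h summit was 37.5 bp, against 27 bp in other regions present in all 4 TCPOBOP lists, and 40 against 28.5 bp within the members' middle range of widths. Within 50 bp lay 62.4% of members and 68.5% of the others, and within 100 bp 83.9% of each. Over the 4 TCPOBOP pools at 27 h the summit ranged over a median of 103 bp in members and 81 bp in the others. Within the same range of widths the values were 122 and 91 bp. On these medians, summits of members lay farther apart than those of other regions, both over time and between pools. Over time the order turned within 200 bp, with 95.6% of members and 94.2% of the others. Members had a lower scaled pileup, with medians of 1.04 and 2.01. The 3 h summit of 82 members came from 1 list. Only width was matched, and the part of strength and of the number of lists was not tested.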

How the data were processed

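DNase-seq peak lists of 16 pools were used. The submitters' processing notes name Bowtie and the mm9 build. Peaks were called per pool with MACS 2.1.0.20150731 without a control library, with ends shifted by 100 bp and extended to 200 bp, at a q-value of 0.05, per the file headers. The deposited pileup is an unscaled signal (coverage at the summit), the deposited fold is a ratio to local background, and −log10 p and −log10 q are the authors' values, per the file headers. Between 458 and 552 peak numbers were absent from each list, by a filter that no header or label states. The heading of 1 female 27 h TCPOBOP list carried another experiment's code than its command line and peak names, which were followed.

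Merging was done in Python 3.11.15 with pandas 2.3.3 and numpy 2.4.6 and gave the same counts in bedtools 2.31.1. Log2 pileup per 1000000 tags was centred per library on regions in all 16 lists and fitted in limma 3.58.1 (R 4.3.3) over 8 groups, with a trended prior and Benjamini-Hochberg adjustment over all tested regions. The fit was tested on simulated data. Missing values were left missing. The labels do not say that pools came from separate days or preparations, so p-values measure the spread between pools and nothing wider. The fit draws the spread of each region towards that of all regions. With 2 pools in each group, the SE and p-value of a member rest mostly on the spread of other regions. Pools with the same number did not deviate together (correlations of −0.03 to 0.04). The members and all lists and rules were chosen with earlier results of these data known. Named regions are the 12 of best worst rank by −log10 q, the 3 of lowest, those past a test (at most 8 by p), and the 5 with most 3 h lists. Gene lists, cell type markers and motifs were planned and not used here for want of an mm9 reference.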

Additional observations from a re-analysis of the deposited data

How the results depend on the processing

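The count of 315 became 194 and 55 with TCPOBOP peaks of −log10 q of at least 5 and 10, 293 to 552 without 1 pool, 305 at equal list length, 317 with merging at 100 bp, 366 without merging and 352 with the early regions kept. The 205 members with a 3 h TCPOBOP peak became 153 at equal list length, 204 counted over the 27 h summits and 170 to 195 without 1 pool, a setting chosen after seeing the data. In the male 3 h test 0 members were called under every setting run, and 1 was lower at an unadjusted p under 0.05. The female 3 h test called 0 in place of 1 with its 4 libraries alone and on fold enrichment, and 0 to 1 without 1 pool; without the second vehicle pool the 1 called was another member. Female against male at 27 h, the 48 and 6 calls became 16 and 10 without centring, 54 and 3 centred on the 5000 strongest regions, 71 and 8 with the 4 libraries alone, 47 and 5 without a mean trend, 12 and 1 on fold enrichment, and 13 to 25 and 1 without 1 pool; the cause was not tested. With the replicate block, pool numbers being shared in name alone, the calls between the sexes were 43 and 4 (1692 and 1993 over all regions). At 3 h they were 0 in males and 1 in females. The chromosome 9 member and the 8 of lowest p between the sexes reversed under no setting run, but chromosome 19 from 39368972 fell from log2 1.21 to 0.015 on fold enrichment, below the median of all regions (0.070). With 2 pools a group, absence from a list is no measured level, and depth limits what a 27 h vehicle list could show.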
